A study of Homo sapiens with 9 samples.

Results

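The genes described are 7 that encode the structural proteins of caveolae: the caveolins CAV1 and CAV2, the cavins CAVIN1, CAVIN2, CAVIN3 and CAVIN4, and the neck ATPase EHD2. They were chosen by symbol for what their products do, with earlier results of these data known. All 7 were found among the 36601 genes of the count files, each under a single Ensembl ID. All 7 had enough counts to be among the 15560 genes tested, so no member was lost to the filter on low counts. RNA came from LX2 cells, an immortalised human hepatic stellate cell line, grown in medium with fetal bovine serum and transfected by lipofection with siRNA at 20 nM for 7 days. There were 3 groups with 3 libraries each: siNT, transfected with a control siRNA that has no target; siYAP, in which YAP was knocked down; and siTAZ, in which TAZ was knocked down. Every library is thus from a transfected culture of 1 cell line, and no untransfected culture is analysed here. The labels call the 3 libraries of a group biological replicates but do not say whether they came from separate cultures; the p-values then cover only the spread between these libraries, which may be technical.

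Caveolae are small flask-shaped pits of the plasma membrane that flatten under tension and so buffer membrane stretch. Caveolins insert into the membrane from the cytoplasmic side and assemble into oligomers, and cavins form a coat around them. EHD2 is an ATPase that rings the neck and holds the pit at the cell surface. CAV1 and CAVIN1 are the components that caveolae outside muscle cannot form without. Hepatic stellate cells are contractile, matrix-producing cells of the liver, and YAP (gene YAP1) and TAZ (gene WWTR1) are coactivators of the Hippo pathway that respond to mechanical tension and act mainly through TEAD DNA-binding proteins.

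The libraries held between 16498508 and 18752805 counts in genes, and 3 counts corresponded to 0.157 to 0.177 CPM (counts per 1000000 counts in genes, after TMM scaling), a floor that covers counting error only. The targeted transcripts were lowest in the libraries labelled with their siRNA. The mean CPM of YAP1 was 209 ± 4.11 (SD, n = 3) with siNT, 26.3 ± 1.49 with siYAP and 170.0 ± 8.01 with siTAZ. That of WWTR1 was 62.0 ± 5.50, 75.8 ± 0.522 and 9.53 ± 0.917, so the coactivator not targeted moved too: YAP1 had a log2 fold change of -0.30 after siTAZ, and WWTR1 one of 0.29 after siYAP. Reads in no annotated gene made up 4.73% to 5.13% of the reads listed in the siNT libraries, 6.01% to 7.49% in siYAP (highest in replicate 1) and 5.53% to 5.63% in siTAZ; their part in the results was not tested, and all members called after siYAP were also called without siYAP replicate 1. The stellate markers of the labelled cell type were present, with COL1A1 at 4168 CPM and SPARC at 3276 CPM after siNT, apart from desmin (DES), at 0.269 CPM. Markers of other cells that are rich in caveolae were low or mixed, and ADIPOQ, MYOD1 and MYOG had no counts in any library. After siNT the endothelial genes PECAM1, CDH5, TEK and TIE1 stood at 0.519, 5.21, 6.51 and 44.1 CPM. The muscle gene TTN stood at 8.45 CPM.

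After knockdown of YAP the transcripts of 3 cavins, EHD2 and CAV1 were lower, and after knockdown of TAZ those of CAV1, CAVIN1, CAVIN2 and EHD2 were lower, by less except for CAV1. After siYAP, CAVIN2 fell 2.51-fold, CAVIN1 1.83-fold, CAVIN3 1.69-fold and EHD2 1.67-fold, as ratios of group means, while CAV1 fell 1.14-fold. CAV2 and CAVIN4 rose, 1.14-fold and 1.61-fold. After siTAZ, CAV1 fell most, 1.33-fold, followed by CAVIN2, 1.27-fold, CAVIN1 and EHD2, both 1.10-fold. In these bulk samples, fewer cells with a transcript and less of it per cell cannot be told apart.

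After siYAP all 7 members had an adjusted p under 0.05 by the quasi-likelihood test of edgeR, 5 of them lower and 2 higher. Of all genes tested 67.1% passed in that comparison, 33.4% lower and 33.8% higher, so the share of members called has to be read against a background in which most genes were called. The libraries of siYAP and siNT did not overlap for 7 of 7 members, and for 70.5% of all genes. The median log2 fold change of the members was -0.74, beside 0.02 for all genes tested. After siTAZ 4 of 7 members were called, all 4 lower and 0 higher, where 34.6% of all genes were called, 18.2% lower and 16.4% higher. At an unadjusted p under 0.05, 5 were lower and 0 higher, and DESeq2 called 4 lower and 0 higher. The 4 were CAV1, CAVIN1, CAVIN2 and EHD2. The same 4 had libraries that did not overlap with siNT, as had 44.6% of all genes. CAV2, CAVIN3 and CAVIN4 had negative log2 fold changes that did not pass. The median was -0.19 for the members and 0.01 for all genes. In size without regard to sign, the median change of the members after siTAZ was 0.19, the same as over all genes (0.19), whereas after siYAP it was 0.74 beside 0.45. These comparisons share the siNT libraries.

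**Figure D1:**
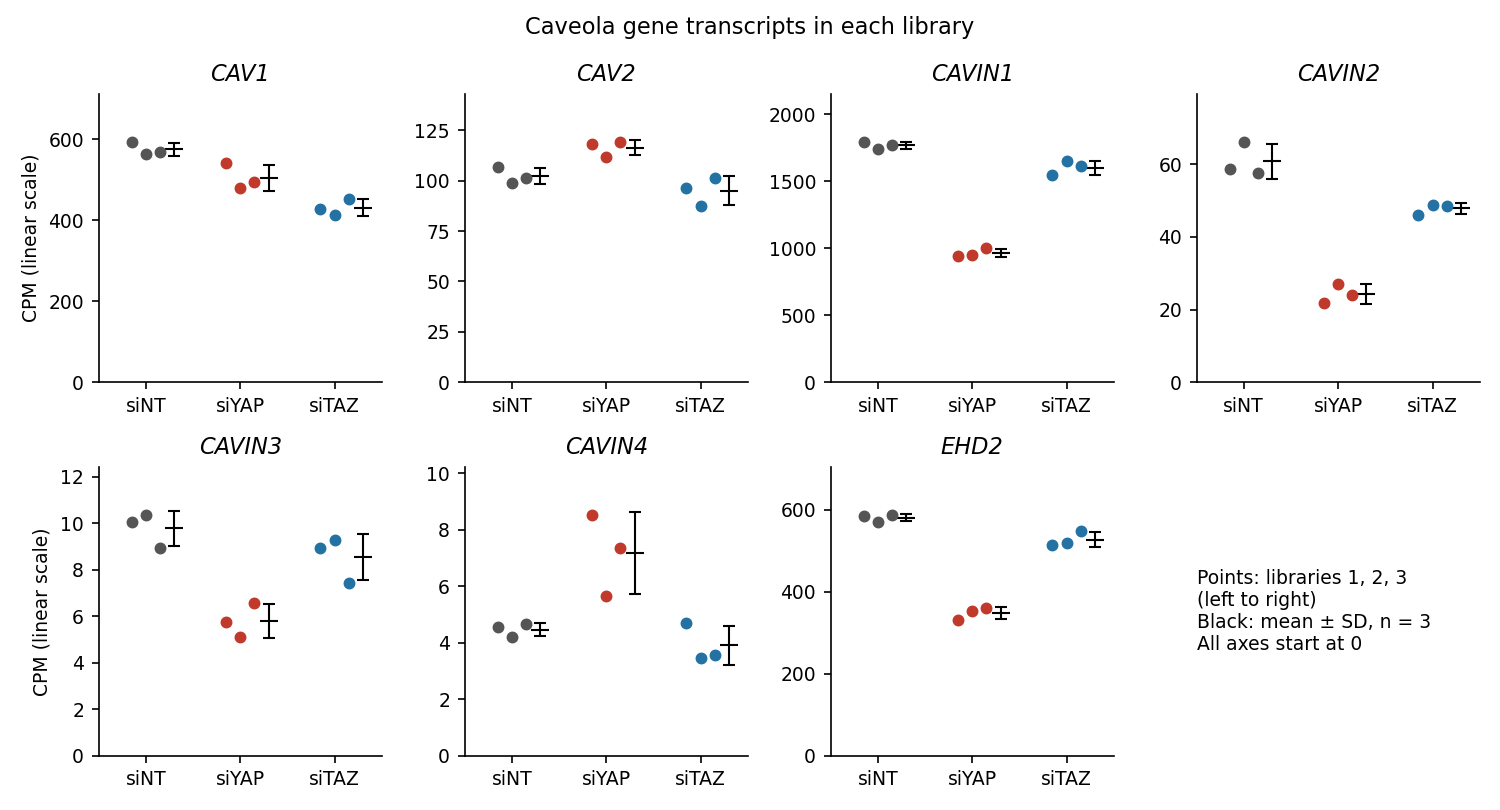
CPM (linear axes from 0) of the 7 caveola genes in the 3 siNT, 3 siYAP and 3 siTAZ libraries, each point a library, with the group mean ± SD in black. CAVIN1, CAVIN2, CAVIN3 and EHD2 have their lowest points in siYAP, CAV1 has its lowest in siTAZ, and CAVIN4 has its highest in siYAP.

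The siNT libraries set the order of abundance of these transcripts. Compared per kilobase of annotated exon, CAVIN1 was the most abundant member, at 462 ± 7.05 CPM per kilobase (SD, n = 3) after siNT. EHD2 followed at 148 ± 2.28 and CAV1 at 141 ± 4.06, and the libraries of these neighbours overlapped. CAVIN2 stood at 18.8 ± 1.47, CAV2 at 14.8 ± 0.600, CAVIN3 at 5.86 ± 0.448 and CAVIN4 at 1.71 ± 0.0884 CPM per kilobase, with no overlap between neighbours. The order of close neighbours depends on the length used. With the longest annotated transcript, CAV1 came before EHD2 (180 against 162 CPM per kilobase) and CAV2 before CAVIN2 (31.0 against 18.8); the merged exons of CAV2, 6926 bases, are 2.10 times its longest transcript. After siYAP, CAV1 stood above EHD2, at 124 ± 7.84 against 88.6 ± 3.69, and CAV2 above CAVIN2, at 16.8 ± 0.568 against 7.50 ± 0.830, without overlap; the libraries of CAVIN3 and CAVIN4 overlapped. After siTAZ the order per kilobase of merged exons was that of siNT, and the libraries of CAVIN2 and CAV2 overlapped. With the longest transcript EHD2 came before CAV1 after siTAZ (147 against 135 CPM per kilobase), the reverse of their siNT order by that length. Summed over the 7 members, the level went from 792 ± 12.1 CPM per kilobase after siNT to 495 ± 10.2 after siYAP and 693 ± 16.7 after siTAZ. CAVIN1 supplied 58.3% of that sum after siNT and 50.9% after siYAP, and CAV1 supplied 17.8% and 25.0%. These sums and shares are by merged exons and depend on the length used. With the longest transcript, CAVIN1 stayed at 462 CPM per kilobase after siNT while CAV1 stood at 180.

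**Figure D2:**
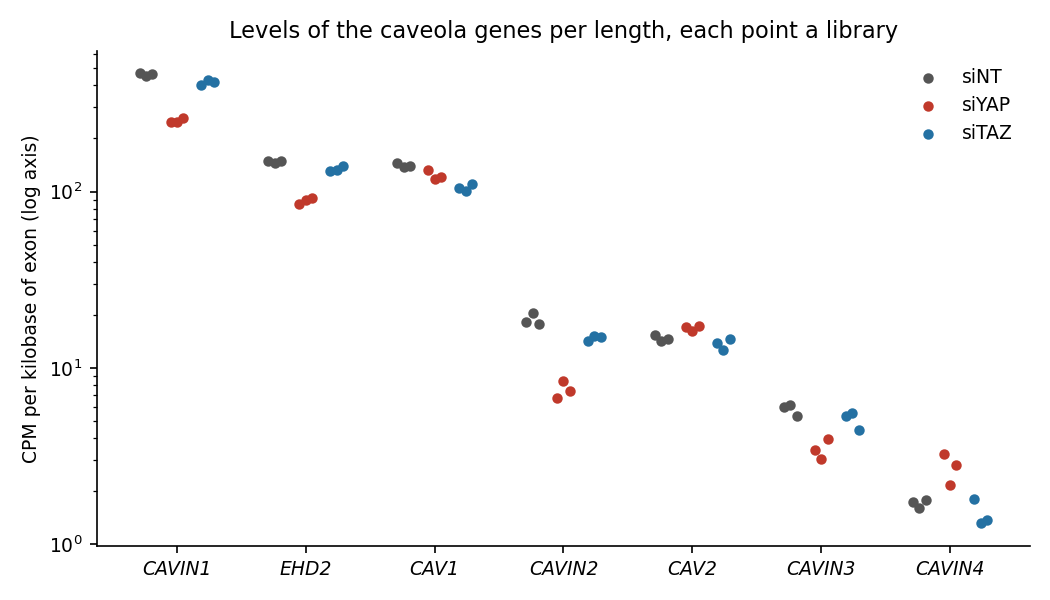
CPM per kilobase of annotated exon (log axis) for the 7 members, ordered by their siNT level, each point a library and each colour an siRNA group. CAVIN1 lies at 462 CPM per kilobase after siNT and CAVIN4 at 1.71, and the siYAP points of CAVIN2 lie below those of CAV2 while the siNT points lie above.

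CAV1 (ENSG00000105974; chromosome 7, 116524785 to 116561184, plus strand, GENCODE 29 on GRCh38) encodes caveolin-1, the main caveolin of non-muscle cells. Its levels were 594, 564 and 568 CPM in the siNT libraries, 541, 479 and 493 in the siYAP libraries and 428, 413 and 453 in the siTAZ libraries. The 3 groups did not overlap, with siNT highest and siTAZ lowest. In log2 units CAV1 fell by 0.19 after siYAP (SE 0.04; edgeR, adjusted p = 1.31e-05) and by 0.42 after siTAZ (SE 0.04; adjusted p = 2.98e-13). The direct comparison placed siTAZ below siYAP, with a log2 fold change of -0.23 ± 0.04 (SE; edgeR, adjusted p = 6.01e-07). CAV1 was the member with the largest fall after siTAZ, and 77.5% of all tested genes changed less in size. After siYAP its fall was small by the measure of that comparison, with 22.8% of tested genes changing less.

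CAV2 (ENSG00000105971; chromosome 7, 116287380 to 116508541, plus strand) encodes caveolin-2, which relies on caveolin-1 to reach the plasma membrane and forms mixed oligomers with it. The gene ends 16.2 kb before CAV1 starts. Its levels were 107, 98.8 and 101 CPM after siNT, 118, 112 and 119 after siYAP and 96.4, 87.4 and 102 after siTAZ. Every siYAP library lay above every siNT library, and the siTAZ libraries overlapped with siNT. CAV2 rose after siYAP with a log2 fold change of 0.19 ± 0.05 (SE; edgeR, adjusted p = 0.000756), the direction opposite to that of its neighbour CAV1. After siTAZ its log2 fold change was -0.11 ± 0.05 (SE) and did not pass (95% interval -0.21 to -0.01; adjusted p = 0.0953 by edgeR, with an unadjusted value of 0.0384). That call turned on 1 library: without siTAZ replicate 3 it was -0.15 with an adjusted p of 0.0241 (edgeR; over all alternatives the adjusted p ran from 0.0241 to 0.533). Without siTAZ replicate 2 it was -0.05, at the upper end of that range. CAV2 was lower after siTAZ than after siYAP, by -0.29 ± 0.05 (SE; edgeR, adjusted p = 5.26e-07). An antisense transcript with exons over CAV2 had at most 4 counts in a library.

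CAV2 per CAV1 can be read within each library, where the scaling between libraries cancels. The ratio of their CPM per kilobase was 0.106, 0.103 and 0.105 after siNT, 0.129, 0.138 and 0.143 after siYAP and 0.133, 0.125 and 0.132 after siTAZ. Both knockdown groups lay wholly above siNT and overlapped with each other. The ratio was 1.30-fold higher after siYAP and 1.24-fold higher after siTAZ than after siNT, each with p = 0.10 in an exact two-sided permutation test over libraries, the smallest p that 3 against 3 libraries allow. The groups siTAZ and siYAP differed 0.953-fold (exact permutation p = 0.30). Over the 6 ratio comparisons made, the adjusted p was 0.12 for those at 0.10.

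The 3′ untranslated regions were searched for 2 short words that had been picked from these same data as related to the siRNA groups. The word TGGATAA, tied to siYAP, was in the longest annotated 3′ untranslated region of 0 of 7 members, beside 13.1% of 13301 tested genes. The word ATGAAC, tied to siTAZ, was in 3 of 7, beside 34.2% of those genes. The 3 were CAV1, CAV2 and CAVIN2, each with 1 site. After siTAZ, CAV1 and CAVIN2 were called lower and CAV2 was not, and CAVIN1 and EHD2, without the word, were also called lower. Because the word was picked from these same libraries, its presence in members that fell there cannot serve as a test. The word is in capitals, and the sequence is that of the GENCODE 29 transcript, 5′ to 3′.
CAV1: gctgagatATGAACatattgtt
CAV2: ttataatgATGAACttataatg
CAVIN2: cctttagtATGAACcactataa
The site begins at base 276 of 1897 in the untranslated region of CAV1, base 293 of 2420 in CAV2 and base 1393 of 1621 in CAVIN2. Which siRNA sequences were used is not stated in the labels, and the part of these sites in the result was not tested.

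**Figure D3:**
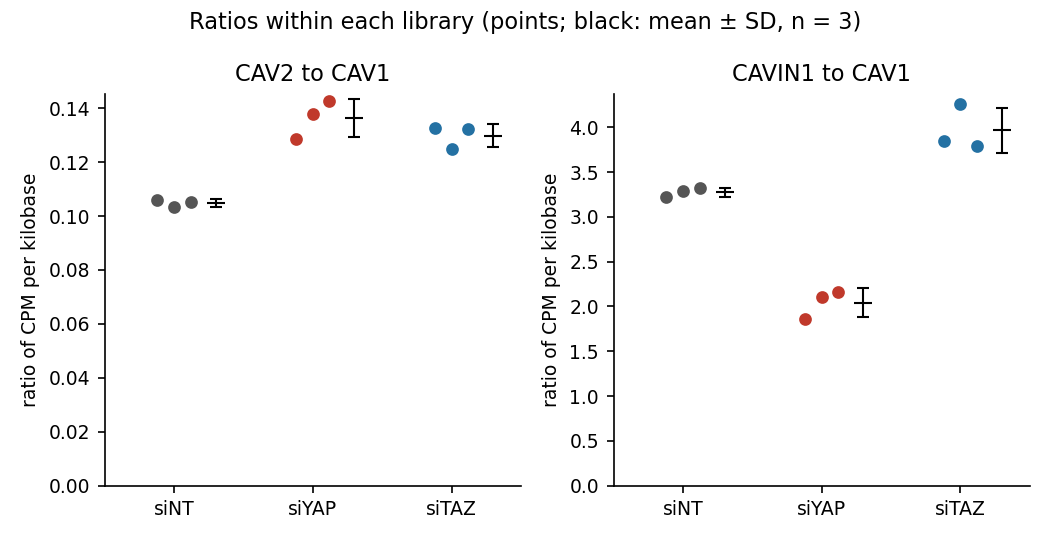
Ratio of CPM per kilobase of CAV2 to CAV1 and of CAVIN1 to CAV1 in each library (points, linear axes from 0), with group means ± SD in black. CAV2 to CAV1 is higher than siNT in both knockdown groups, and CAVIN1 to CAV1 is lower than siNT after siYAP and higher after siTAZ.

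CAVIN1 (ENSG00000177469; chromosome 17, 42402452 to 42423517, minus strand) encodes cavin-1, the coat protein that caveola formation requires. Its levels were 1794, 1740.3 and 1767 CPM after siNT, 943, 948 and 999.9 after siYAP and 1545, 1648 and 1609 after siTAZ. The siYAP libraries lay far below the others, and the siTAZ libraries lay just below siNT without overlap. In log2 units CAVIN1 fell by 0.87 after siYAP (SE 0.03; edgeR, adjusted p = 1.98e-36) and by 0.14 after siTAZ (SE 0.03; adjusted p = 5.49e-05). The level after siTAZ was above that after siYAP by 0.73 ± 0.03 on the log2 scale (edgeR, adjusted p = 3.17e-32). With 16912 counts in its lowest library, CAVIN1 had the most counts of the 7.

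The transcripts of the pair that caveola formation needs did not keep their proportion. CAVIN1 per CAV1, as a ratio of CPM per kilobase, was 3.22, 3.29 and 3.32 in the siNT libraries, 1.86, 2.11 and 2.16 in the siYAP libraries and 3.85, 4.26 and 3.79 in the siTAZ libraries. The groups did not overlap, with siYAP below siNT and siTAZ above it. The ratio was 0.622-fold that of siNT after siYAP and 1.21-fold after siTAZ, and 1.94-fold higher after siTAZ than after siYAP. Each of these differences had p = 0.10 in the exact two-sided permutation test, the smallest it can give here (adjusted p = 0.12). Ratios of gene pairs outside the members were not computed, so whether such a change is particular to this pair was not tested.

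CAVIN2 (ENSG00000168497; chromosome 2, 191834302 to 191847255, minus strand) encodes cavin-2, a phosphatidylserine-binding cavin that shapes membrane curvature. Its levels were 58.7, 66.2 and 57.5 CPM after siNT, 21.7, 27.0 and 23.9 after siYAP and 46.1, 48.9 and 48.5 after siTAZ. The 3 groups were apart, siYAP lowest and siTAZ between. In log2 units CAVIN2 fell by 1.33 after siYAP (SE 0.07; edgeR, adjusted p = 1.07e-24), the largest fall of the 7, and 86.9% of tested genes changed less in size. It fell by 0.35 after siTAZ (SE 0.07; adjusted p = 4.28e-05), and siTAZ lay above siYAP by 0.98 ± 0.08 (SE; edgeR, adjusted p = 2.92e-18). An antisense transcript with exons over CAVIN2 had at most 9 counts in a library.

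Promoter windows of 300 bases, from 250 bases before to 50 after an annotated start, were found in RefSeq on GRCh38.p14 for CAV1, CAV2, CAVIN2, CAVIN4 and EHD2, 8 windows in all. They were searched on both strands for CATTCC, the core word of TEAD sites, for TGANTCA, the word of AP-1 sites, and for the CArG box of SRF. Of all 35116 windows 14.0% held CATTCC, 7.71% held TGANTCA and 1.29% held a CArG box. Among the 8 windows the single match was CATTCC in that of CAVIN2, a share near that of all windows. CAVIN1 and CAVIN3, which also fell after siYAP, had no window and were not searched. The window is chr2:191847039-191847338, minus strand, printed 5′ to 3′ along the gene with the match in capitals; there it reads as the reverse complement, GGAATG, from base -16 to base -11 before the start.
CAVIN2: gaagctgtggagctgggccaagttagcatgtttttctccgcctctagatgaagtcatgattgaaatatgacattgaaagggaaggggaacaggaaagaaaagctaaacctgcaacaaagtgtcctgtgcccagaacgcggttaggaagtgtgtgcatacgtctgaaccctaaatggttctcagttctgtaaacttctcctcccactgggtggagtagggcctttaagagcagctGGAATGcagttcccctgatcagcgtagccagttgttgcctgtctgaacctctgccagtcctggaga
A match is a description of these letters, and the absence of one in the other windows says only that the word is not in them.

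CAVIN3 (ENSG00000170955; chromosome 11, 6318946 to 6320647, minus strand) encodes cavin-3, which binds protein kinase C delta. It was a low transcript, with 98 to 180 counts per library. Its levels were 10.1, 10.4 and 8.94 CPM after siNT, 5.75, 5.12 and 6.56 after siYAP and 8.93, 9.28 and 7.44 after siTAZ. The siYAP libraries lay below all others, and the siTAZ libraries overlapped with siNT. In log2 units CAVIN3 fell by 0.76 after siYAP (SE 0.16; edgeR, adjusted p = 2.08e-05). After siTAZ the log2 fold change was -0.19 ± 0.15 (SE; adjusted p = 0.34), with a 95% interval of -0.49 to 0.10 that holds the falls of CAVIN1 and CAVIN2. The groups siTAZ and siYAP differed by 0.56 ± 0.16 (SE; edgeR, adjusted p = 0.00134). An opposite-strand transcript over its exons had up to 12 counts in a library, and no label says whether the counting used strand.

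CAVIN4 (ENSG00000170681; chromosome 9, 100578079 to 100587906, plus strand) encodes cavin-4, the cavin of striated muscle. It had the fewest counts of the 7, 62 to 160 per library. Its levels were 4.54, 4.20 and 4.64 CPM after siNT, 8.51, 5.64 and 7.33 after siYAP and 4.71, 3.44 and 3.58 after siTAZ. The siYAP libraries lay above all others but were spread, and siTAZ overlapped with siNT. CAVIN4 rose after siYAP with a log2 fold change of 0.68 ± 0.19 (SE; edgeR, adjusted p = 0.00123). After siTAZ it was -0.19 ± 0.20 (adjusted p = 0.515; 95% interval -0.59 to 0.22), and siTAZ lay below siYAP by -0.87 ± 0.19 (SE; edgeR, adjusted p = 6.23e-05). The gene TMEFF1, which ends 0.443 kb before CAVIN4 starts and was looked up after the values of CAVIN4 were seen, had mean levels of 19.3 ± 1.38 CPM with siNT (SD, n = 3), 33.8 ± 2.18 with siYAP and 9.09 ± 0.407 with siTAZ. Whether reads from its transcripts add to the counts of CAVIN4 was not tested. Of the 3 striated muscle markers tested, 0 passed edgeR's test after siYAP, 0 also at an unadjusted p under 0.05 and 0 by DESeq2. All 10 genes of that list, tested or not, summed to 8.77 to 12.8 CPM in the siNT libraries and 8.20 to 11.9 in the siYAP libraries. Most of that sum was TTN (mean 8.45 CPM after siNT and 8.71 after siYAP), and MYOD1 and MYOG were at 0 in all.

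EHD2 (ENSG00000024422; chromosome 19, 47713343 to 47743134, plus strand) encodes the ATPase of the caveolar neck. Its levels were 585, 570.3 and 587 CPM after siNT, 331, 353 and 359 after siYAP and 513, 519 and 549 after siTAZ. The groups were apart, with siTAZ close below siNT and siYAP well below both. In log2 units EHD2 fell by 0.74 after siYAP (SE 0.03; edgeR, adjusted p = 3.70e-29) and by 0.14 after siTAZ (SE 0.03; adjusted p = 0.000564). The groups siTAZ and siYAP differed by 0.60 ± 0.03 (SE; edgeR, adjusted p = 1.59e-24).

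**Figure D4:**
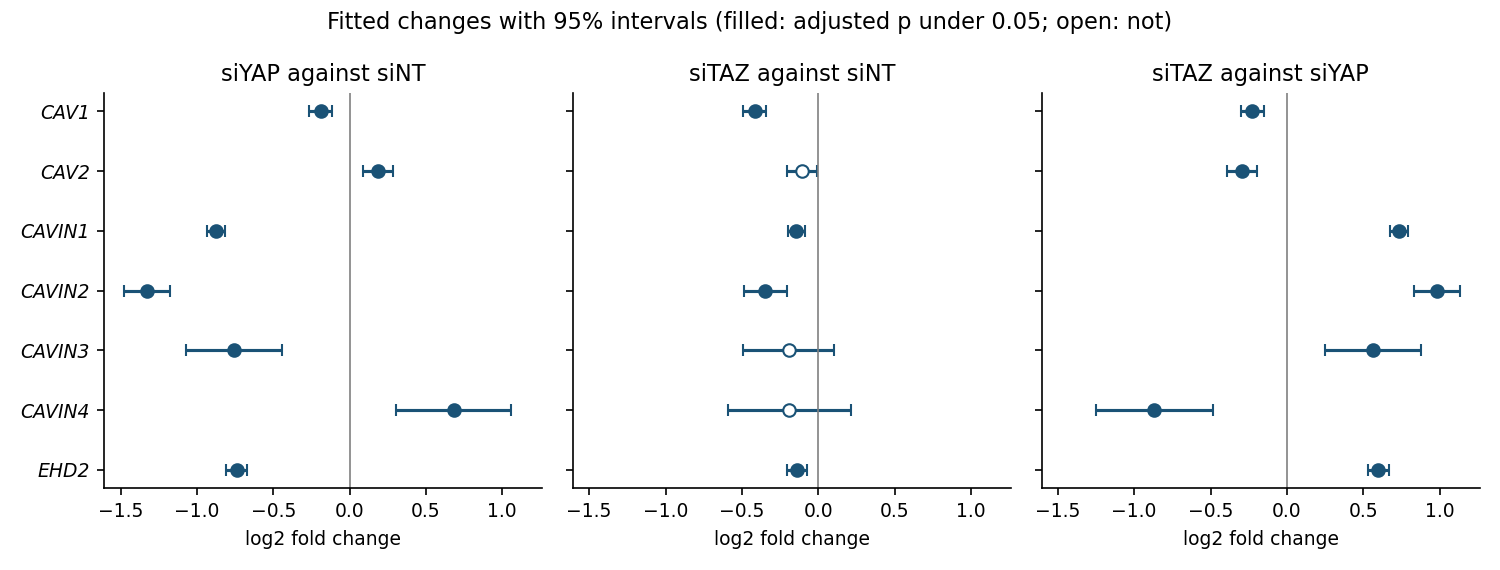
Fitted log2 fold changes of the 7 members in the 3 comparisons, with 95% intervals from the edgeR fit over all 9 libraries; filled points passed at an adjusted p under 0.05. In siYAP against siNT 5 points lie below 0 and 2 above, in siTAZ against siNT all 7 lie below 0 and 4 are filled, and in siTAZ against siYAP 4 lie above 0 and 3 below.

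The direct comparison of siTAZ with siYAP, which tests whether the knockdowns differ, called all 7 members, where 66.2% of all genes were called, and the libraries did not overlap for 7 of 7, as for 68.2% of all genes. CAVIN1, CAVIN2, CAVIN3 and EHD2 were higher after siTAZ and CAV1, CAV2 and CAVIN4 were lower; 33.0% of all genes were called higher and 33.2% lower. As patterns over the 9 libraries, measured by the root mean square difference of log2 CPM centred on the mean of each gene, EHD2 and CAVIN1 were the nearest members (0.07), and CAVIN1 with CAVIN3 and CAVIN3 with EHD2 followed (0.14 and 0.15). CAV1 and CAV2 differed by 0.17, CAV1 and CAVIN1 by 0.41, and CAVIN2 and CAVIN4 by 0.94, the widest.

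Among 10425 other genes with a symbol and an average log2 CPM of at least 3, some lay nearer to the members than the members did to each other. The pattern nearest to that of CAV1 was that of VIM, the intermediate filament protein vimentin, at a difference of 0.04, followed by MZT1 and TUBG1, both components of the gamma-tubulin complex (0.05 each). VIM went from 531 CPM after siNT to 486 after siYAP and 403 after siTAZ. Nearest to CAV2 were GGCX (0.0357), PIK3CD (0.0427) and SSR1 (0.045). CAVIN1 was nearest to the splicing regulator PTBP1, TOMM22 and MCM7 (0.04 each), and CAVIN2 to RACGAP1 (0.05), TK1 (0.06) and FRMPD4 (0.07). EHD2 was nearest to TMEM97, LACTB and TNPO3 (0.02 each), CAVIN3 to BCCIP, TAF1 and EIF4G3 (0.08 to 0.10), and CAVIN4 to CPEB4, PAPPA and ZNF280B (0.13 to 0.14). With 9 libraries in 3 groups, such nearness mostly restates the group means and is a description.

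**Figure D5:**
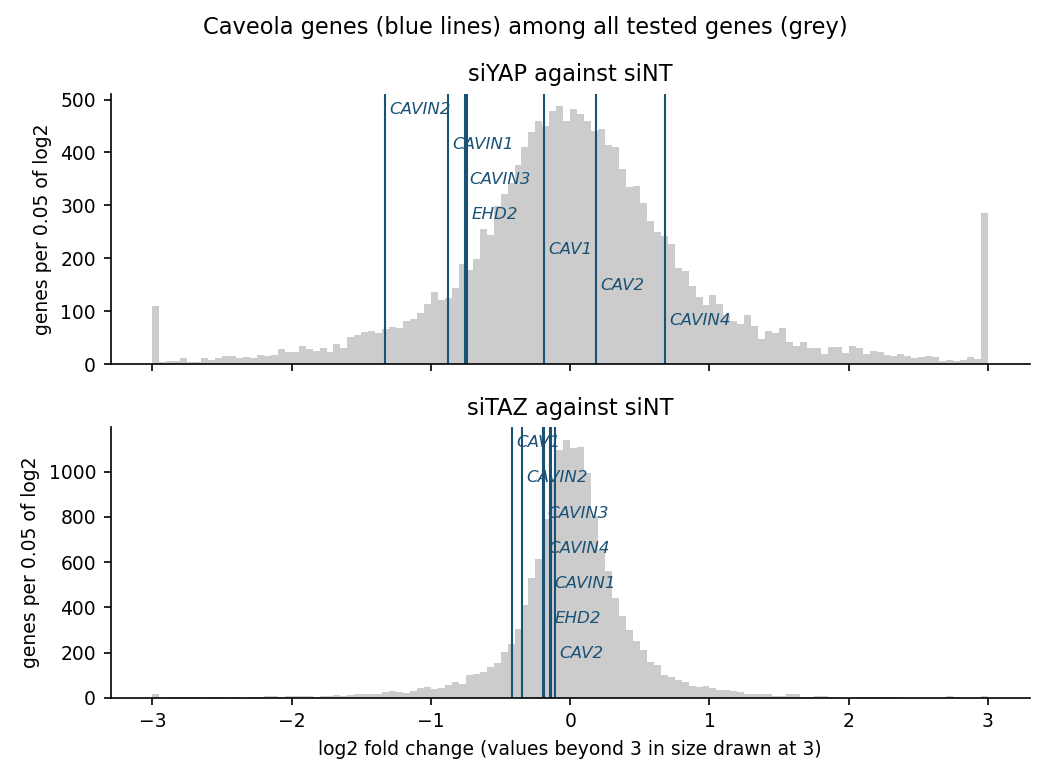
Histograms of the log2 fold change of all 15560 tested genes in siYAP against siNT and siTAZ against siNT (grey, genes per 0.05 of log2), with the 7 members as blue lines. After siYAP CAVIN2 lies at -1.33 and CAVIN4 at 0.68; after siTAZ the 7 lines lie between -0.42 and -0.11.

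Partners that work at the caveola neck or bend membranes were followed as a list of 10 genes, of which 9 were tested. After siYAP 6 of 9 were lower and 0 higher, where 33.4% of all genes were lower and 33.8% higher. After siTAZ again 6 were lower and 0 higher, beside 18.2% and 16.4% of all genes, and the median log2 fold changes were -0.34 and -0.14 (all genes 0.02 and 0.01). DESeq2 gave the same counts, and at an unadjusted p under 0.05, 7 were lower and 1 higher after siYAP and 6 lower and 0 higher after siTAZ. The EHD relatives, ATPases of endosomal membranes, were among them: EHD1 went from 338 ± 3.93 CPM (SD, n = 3) after siNT to 267 ± 7.21 after siYAP and 310 ± 6.67 after siTAZ, and EHD4 from 113 ± 3.18 to 80.0 ± 2.60 and 103 ± 4.91. EHD3 did not pass after siYAP (log2 -0.18 ± 0.09; edgeR, adjusted p = 0.0699) and fell by 0.50 after siTAZ (SE 0.09). PACSIN2, an F-BAR protein that sculpts caveolae, fell by 0.19 after siYAP and by 0.36 after siTAZ, and PACSIN3 fell by 0.32 after siTAZ, with -0.12 ± 0.10 after siYAP. DNM2, the widely expressed dynamin that cuts membrane necks, did not pass in either comparison with siNT (0.08 ± 0.04 and -0.05 ± 0.04). DNM1 fell by 0.51 and by 0.23. PACSIN1 and DNM3, at 0.691 and 1.08 CPM after siNT, fell by 1.74 and by 1.29 after siYAP with SEs of 0.64 and 0.50, and did not pass after siTAZ. Both are among the 6 lower after siYAP, where PACSIN1 had only 3, 2 and 6 counts and DNM3 9, 9 and 6. CAV3, the muscle caveolin, had at most 9 counts in a library and was not tested.

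Counts for other lists of membrane genes have to be read against the shares of all genes called. These were 33.8% higher and 33.4% lower after siYAP, and 16.4% and 18.2% after siTAZ. Of 7 tested genes of the flotillin and stomatin list, 3 rose and 4 fell after siYAP, and 1 rose and 1 fell after siTAZ. STOML2 and the prohibitin genes were among the 4 that fell after siYAP, and STOML2 was the 1 that fell after siTAZ. The counts are those of the list as a whole and are not read here as those of an uptake route. FLOT2 rose after both, by 0.51 ± 0.05 and 0.49 ± 0.05 on the log2 scale, FLOT1 fell by 0.43 after siYAP, and STOM rose 2.67-fold after siYAP. Of 19 tested genes of the clathrin coat and its adaptors 7 rose and 9 fell after siYAP, with a median of -0.11 (all genes 0.02). After siTAZ 1 rose and 7 fell, with a median again of -0.11 (all genes 0.01), so falls outnumbered rises here as among the caveola genes. The scaffold ITSN1 fell by 1.63 after siYAP, and the cargo adaptor DAB2 fell by 0.74 after siYAP and by 0.88 after siTAZ. Of 16 tested kinases, receptors and cargo linked to caveolae 6 rose and 8 fell after siYAP and 2 rose and 4 fell after siTAZ. FLNA, a filamin that ties caveolin-1 to actin, fell by 0.73 after siYAP, BMPR2 fell by 0.79, PDGFRB fell by 1.49, and the Src-family kinase FYN rose by 0.96 ± 0.04. TGFBR1, a TGF-beta receptor, fell by 1.21 after siTAZ.

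Genes of the marker lists differed between the siRNA groups as well, in comparisons where 67.1% (siYAP) and 34.6% (siTAZ) of all genes were called. Stellate markers summed to 9776 to 9884 CPM in siNT, 5290.2 to 5382 in siYAP and 14233 to 14277 in siTAZ libraries. Most of that was COL1A1 (4168, 2046 and 6255 CPM in that order) and SPARC (3276, 901 and 4521 CPM). By gene, 4 of 9 tested were higher and 5 lower after siYAP, and 5 were higher and 3 lower after siTAZ. Endothelial markers summed to 60.3 to 63.7, 124.9 to 139.5 and 24.5 to 26.4 CPM, most of it TIE1 (44.1 CPM after siNT), with 4 of 7 higher and 3 lower after siYAP and 5 lower after siTAZ, of which DESeq2 called 3; EMCN had at most 3 counts in a library. PECAM1 went to 6.39 CPM after siYAP, and CDH5 from 5.21 to 0.364. Adipocyte markers summed to at most 4.68 CPM in any library, with 1 tested, PLIN4, higher after siYAP, and of 3 tested striated muscle markers 1, ACTA1, was higher after siTAZ. Of hepatocyte markers 1 was tested and rose after siYAP, SERPINA1, while ALB had at most 3 counts in a library. Of 4 tested epithelial markers 1 rose and 2 fell after each siRNA. The list summed to 670 to 682 CPM after siNT, 229 to 242 after siYAP and 542 to 627 after siTAZ. Most of the siNT sum was KRT8 and KRT18 (293 and 331 CPM). Of 4 tested leukocyte markers 2 rose and 1 fell after siYAP and 2 fell after siTAZ. The list summed to 33.7 to 37.0 CPM after siNT, 125.9 to 130.9 after siYAP and 22.2 to 24.6 after siTAZ. Most of it was CD68 (22.3 CPM after siNT and 115 after siYAP), while PTPRC fell from 2.60 to 0.147 CPM after siYAP. The part of these marker genes in the changes of the caveola genes was not tested.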

How the data were processed

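The deposited files hold raw read counts per human Ensembl gene, 1 library per file; per the submitters' processing notes the authors used STAR 2.5.0c, HTSeq, Trim Galore, Picard and SAMtools, with no settings given. The build named there, mm10, is a mouse build while every gene ID is human, so the build and annotation behind the counts are not known, and coordinates and exon lengths are those of GENCODE 29 on GRCh38. Rows that name no gene stayed out of all fits: reads in no feature were 4.73% to 7.49% and ambiguous reads 6.33% to 6.91% of the reads in these rows and in genes together. Depth was 16498508 to 18752805 counts in genes. Symbols were matched by Ensembl ID: 36366 in the name table supplied and 219 more in GENCODE 29.

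The main analysis of the counts used edgeR 4.0.16 under R 4.3.3, with filterByExpr (minimum count 10, total 15), TMM scaling, and a robust two-sided quasi-likelihood fit over all 9 libraries, with Benjamini-Hochberg adjustment over 15560 genes and calls under 0.05. Standard errors and intervals are from that fit. CPM use TMM-scaled totals; levels between genes are per kilobase of merged exons. Ratios were compared by exact permutation. The fit was tested on simulated data, in which few genes changed, in random directions, and the spread was that of the fit itself. Data in which most genes differ, as after siYAP, were not simulated. Of 50 changes of 1.2-fold the fit recovered 25 in the siYAP layout and 18 in the siTAZ layout, so changes of that size can be missed. Of 50 changes of 2-fold it recovered 48 in each. The alternatives tried were other scalings (RLE, upper quartile), other filters (none, or a CPM of 1 or more in 3 libraries), a block for the replicate number, a fit to only the groups compared, DESeq2 1.42.0, each library left out, a threshold of 0.01, and the longest transcript as length.

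The 7 members and the 11 gene lists were chosen with earlier results of these data known. Named genes are all members, YAP1 and WWTR1, the tested neck partners, up to 4 called genes of smallest p per other list, and for each member the 3 genes of nearest pattern; others are marked as chosen after their values were seen or are marker genes given by level.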

Additional observations from a re-analysis of the deposited data

How the results depend on the processing

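The counts of members called were 7 after siYAP and 7 for siTAZ against siYAP under every alternative run, and 4 to 5 after siTAZ, where CAV2 was added on leaving out siTAZ replicate 3 (log2 -0.15, adjusted p = 0.0241 by edgeR). Of 273 refitted log2 fold changes of members, 272 kept their direction and side of the threshold, that being the exception, and 0 changed direction. The ranges over libraries left out were -0.25 to -0.16 for CAV1 after siYAP, -0.45 to -0.39 for CAV1 after siTAZ, and 0.53 to 0.83 for CAVIN4 after siYAP. Changes after siTAZ that were not called moved by over 1.5 times: CAV2 from -0.15 to -0.05, CAVIN3 from -0.26 to -0.10 and CAVIN4 from -0.35 to -0.10. The replicate number did not pair libraries: deviations of same-numbered libraries from their group means correlated at -0.03 to 0.01 over 9 pairs, and with the replicate block 7, 4 and 7 members were called. Upper-quartile scaling moved the fall of CAV1 after siYAP to -0.16, the smallest over the scalings. Levels per kilobase of CAV1, CAV2, CAVIN3 and EHD2 moved by more than 1 SD with the longest transcript as length; the ratio changes do not depend on it. Leaving out libraries, chosen after seeing the data, put the change of the log2 ratio of CAVIN1 to CAV1 at -0.73 to -0.62 after siYAP and 0.22 to 0.31 after siTAZ, and that of CAV2 to CAV1 at 0.34 to 0.42 and 0.29 to 0.34. For the gene lists after siTAZ, DESeq2 called 3 endothelial markers lower (edgeR 5), 1 kinase, receptor or cargo gene higher (edgeR 2), and 0 flotillin and stomatin genes lower and 0 clathrin genes higher (edgeR 1 each). With 3 libraries a group and under 200 counts per library, CAVIN3 and CAVIN4 are the least precise.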

Other observations

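The nearest tested protein-coding genes on each side of the caveola genes, picked by position after the members' values were seen, moved with some members and against others. After siYAP, of 12 pairs of a member and a neighbour that is no member, 4 were both called in the same direction, 6 in opposite directions, and in 2 the neighbour was not called. Of all genes tested, 33.8% were called higher there and 33.4% lower, so such counts have to be read against a background in which most genes were called. After siTAZ the pairs called in the same and in opposite directions were 1 and 3, and in 8 pairs the member, the neighbour or both were not called. There, 16.4% of all genes were called higher and 18.2% lower. TES, 28.6 kb before CAV2, rose by 0.78 (log2) after siYAP and by 0.52 after siTAZ (edgeR, adjusted p = 7.11e-14 and 1.18e-07); CAV2 itself rose by 0.19 after siYAP and was not called after siTAZ. Both neighbours of CAVIN4, which rose by 0.68 after siYAP, rose there too: TMEFF1 by 0.81 and MRPL50, 799.7 kb away, by 0.41. MET, 111 kb after CAV1, did not pass after siYAP (log2 -0.03; adjusted p = 0.601) and fell by 1.23 after siTAZ, from 139.8 ± 5.95 CPM (SD, n = 3) after siNT to 59.5 ± 2.56. STAT3 and ATP6V0A1, on either side of CAVIN1, rose by 1.11 and 1.28 after siYAP, where CAVIN1 fell by 0.87. NOP53, 2.39 kb from EHD2, rose by 0.97 after siYAP and BICRA, on its other side, by 0.36, where EHD2 fell by 0.74. NABP1, 138 kb from CAVIN2, had a log2 fold change of 0.02 after siYAP (adjusted p = 0.697), and TMEFF2, on its other side, fell by 0.47, where CAVIN2 fell by 1.33. SMPD1 and FHIP1B, beside CAVIN3, rose by 0.59 and 0.72, where CAVIN3 fell by 0.76.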
